A study of Mus musculus with 6 samples.

Results

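The insulin-like growth factor (IGF) system of the choroid plexus (ChP) was followed through 9 genes taken by symbol from a table of 24354 gene names. These were the ligand genes Igf1 and Igf2, the receptor genes Igf1r, Insr and Igf2r, and the binding protein genes Igfbp2, Igfbp3, Igfbp4 and Igfbp5. All 9 were in the table, and 8 had a mean above 1 FPKM over the 6 samples and were tested. FPKM is a level scaled to the length of the transcript and to the reads mapped in the sample. Igfbp3 was at 0 in all 6 samples.

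The study compared mRNA on ribosomes between adult and E16.5 mouse ChP, the secretory tissue of the brain ventricles that makes cerebrospinal fluid, by translating ribosome affinity purification (TRAP-seq). All mice carried FoxJ1:cre together with the bacTRAP (EGFP:L10a) transgene, so that Cre under the Foxj1 promoter switched on a tagged ribosomal protein. The paper used this cross to target ChP epithelial cells. Both ages carried the tag, and neither age served as an untagged control. There were 3 adult samples (labelled P60, harvested at 60 days) and 3 E16.5 samples (embryonic day 16.5). The study's methods describe each sample as pooled animals or litters, whereas the series record counts 3 mice for each age. How many animals stand behind a replicate is therefore not settled, and p-values measure the spread between these samples. In samples of RNA from many cells such as these, fewer cells of a type and less RNA per cell cannot be told apart.

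IGF1 and IGF2 are secreted growth factors that signal through the receptor tyrosine kinase IGF1R, and IGF2 also through an isoform of the insulin receptor, toward the PI3K-AKT and MAPK cascades. IGF2R, the cation-independent mannose 6-phosphate receptor, has no kinase domain, takes IGF2 up for breakdown in lysosomes and carries newly made lysosomal enzymes to them. The binding proteins hold IGFs in extracellular fluid and set how much reaches the receptors, and the ChP is known as a source of IGF2 in the cerebrospinal fluid. Igf2, Igf2r, Grb10 and H19 are imprinted genes in mouse, for which the parental origin of an allele decides its expression in many tissues.

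Igf2r was the member whose change passed the test across all genes. It was higher in adult ChP, with a ratio of means of 3.32. Igf2, Igf1r and Insr also lay higher in every adult sample than in any E16.5 sample, and Igfbp2 and Igf1 lay lower in every adult sample, none of these past the threshold, and the changes of Igf2 and Igf1r turned when samples were rescaled to the same sum. In the comparison on log2(FPKM + 1) with limma and Benjamini-Hochberg adjustment over 11601 genes, 1 of 8 members was called at an adjusted p of 0.05, where 10.9% of all genes tested were called. The called member was higher in adult, as were 2.12% of all genes, while 8.83% of all genes were called lower. Groups did not overlap for 6 of 8 members, beside 38.4% of all genes. Adult samples lay above in 4 members, beside 7.39% of all genes, and below in 2, beside 31.0%. An unadjusted p under 0.05 was reached by 4 of 8 members and by 31.3% of all genes. Igf1, counted here and among the members below, had an adult mean of 0.976 FPKM. It passed the filter on the mean through E16.5 alone. The median log2 change was 0.12 over the 8 members and -0.86 over all genes tested, and each change below is adult minus E16.5.

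**Figure D1:**
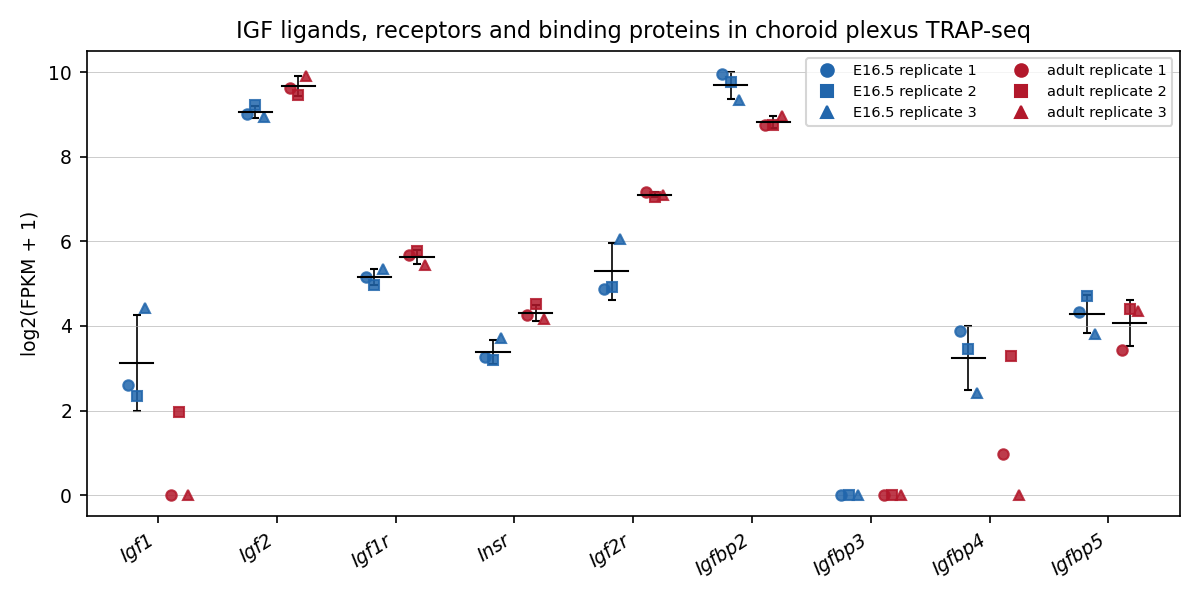
Levels of the 9 members as log2(FPKM + 1) in each sample, E16.5 in blue and adult in red, with the shape giving the replicate. Black lines are the mean and SD of 3 samples on this scale and are left out where a sample is listed at 0. Igf2r in adult stands apart from E16.5, while Igfbp4 and Igfbp5 overlap between the ages.

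Promoter sequence is shown for the 4 members with the highest levels, since their levels carry the comparison. Each run is the 250 bases before a RefSeq transcription start on GRCm38.p6, read 5′ to 3′ on the gene's strand. Windows existed for 8 of the 9 members. Capitals mark matches, on either strand, to a GC box (GGGCGG), the CCAAT motif or an E-box (CACGTG). The windows are chr17:12769707-12769956 (minus strand) for Igf2r, chr7:67952007-67952256 (plus strand) for Igf1r, chr7:142657497-142657746 (minus strand) for the first of 4 Igf2 starts and chr1:72824230-72824479 (plus strand) for the first of 2 Igfbp2 starts.
Igf2r: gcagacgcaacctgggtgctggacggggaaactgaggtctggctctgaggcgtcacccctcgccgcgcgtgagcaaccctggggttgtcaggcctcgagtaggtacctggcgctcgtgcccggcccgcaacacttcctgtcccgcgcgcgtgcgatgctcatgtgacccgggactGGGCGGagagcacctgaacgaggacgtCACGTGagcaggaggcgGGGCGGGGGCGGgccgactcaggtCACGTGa
Igf1r: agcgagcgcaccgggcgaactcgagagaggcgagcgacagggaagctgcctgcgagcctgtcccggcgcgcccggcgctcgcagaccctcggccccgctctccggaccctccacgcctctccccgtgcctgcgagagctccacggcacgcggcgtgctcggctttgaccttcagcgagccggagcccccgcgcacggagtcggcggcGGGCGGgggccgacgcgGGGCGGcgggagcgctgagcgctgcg
Igf2: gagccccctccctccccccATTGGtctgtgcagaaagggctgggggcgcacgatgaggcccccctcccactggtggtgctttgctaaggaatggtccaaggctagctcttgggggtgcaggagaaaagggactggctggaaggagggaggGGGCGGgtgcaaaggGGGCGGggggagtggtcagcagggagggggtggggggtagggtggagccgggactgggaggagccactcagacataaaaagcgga
Igfbp2: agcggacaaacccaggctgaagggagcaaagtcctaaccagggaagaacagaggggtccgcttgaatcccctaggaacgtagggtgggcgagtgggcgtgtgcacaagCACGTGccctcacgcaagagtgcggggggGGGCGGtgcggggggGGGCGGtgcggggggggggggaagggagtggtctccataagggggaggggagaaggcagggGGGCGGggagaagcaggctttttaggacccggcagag

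The Igf2r window held 3 GC boxes, of which 2 are adjacent, and 2 E-boxes. The Igfbp2 window held 3 GC boxes and 1 E-box, the Igf1r window 2 GC boxes, and the Igf2 window 2 GC boxes and 1 CCAAT box. Of 32851 promoter windows of this length, 32.74% held a GC box, 33.85% a CCAAT box and 6.02% an E-box. CG dinucleotides numbered 42 in the Igf1r window and 27 in that of Igf2r, 14 for Igfbp2 and 6 for Igf2, where the median window held 6. No TATA box (TATAAA, in 12.37% of windows) or FOXO motif (GTAAACA, in 3.17%) was matched in these 4 windows. Starts are numbered by rising position on the chromosome, and the unprinted ones differed. Igf2 starts 2, 3 and 4 held 22, 10 and 1 CG and 1, 0 and 0 GC boxes. Igfbp2 start 2 held 11 CG, 0 GC boxes and 0 E-boxes. These matches describe the sequence and were not measured as binding sites.

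Igf2 was the most abundant member in adult ChP, at 794.2, 707.7 and 964.6 FPKM in replicates 1, 2 and 3. At E16.5 it stood at 517.5, 596.2 and 487.2 FPKM. The 3 adult values were all higher than the 3 E16.5 values. The means were 822 ± 131 FPKM in adult and 534 ± 56.3 at E16.5 (SD, n = 3 each), a log2 change of 0.62 (SE 0.23, 95% interval 0.09 to 1.14) with an adjusted p of 0.116 by limma. Among genes above 0, Igf2 ranked 16, 45 and 19 in the adult samples and 91, 73 and 75 at E16.5. The direction turned when each sample was rescaled to the same summed FPKM, to a log2 change of -0.21. Relative to the median gene Igf2 stood 1.47 higher on the log2 scale, above 85.4% of the genes tested.

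The Igf2 gene lies at chr7:142650766-142666816 on the minus strand (mm10, GENCODE M21). Its antisense gene Igf2os overlaps it by 7124 bases, and whether the counting used strand is not given in the sources used here, so reads of the 2 genes may not be told apart. Igf2os was listed at 0, 0.690 and 4.57 FPKM in the adult samples and at 6.41, 3.65 and 2.98 at E16.5, far below Igf2 in each sample. A second annotated gene on the same strand, Gm49394, shares 16048 bases with Igf2 and was not among the gene names with FPKM values.

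Igf1, the other ligand, was listed at 0 in 2 of 3 adult samples. Adult replicates 1 and 3 had 0 and replicate 2 had 2.93 FPKM, and the gene stood at 5.04, 4.11 and 20.6 FPKM at E16.5. The groups did not overlap, and E16.5 replicate 3 was the highest. The log2 change was -2.47 (SE 0.89) with an adjusted p of 0.111 by limma, and an exact two-sided permutation test gave p = 0.1, the smallest that 3 against 3 samples allow. No fold is given, since an exact 0 in such a table can be a failed estimate, and the change rests on those zeros. The adult libraries were also shallower. In the longest coding transcript of Igf1, of 7052 bases, 1 read amounted to 0.0371, 0.0166 and 0.0478 FPKM in the adult samples, against at most 0.0117 at E16.5. In the shortest, of 510 bases, it amounted to 0.820, 0.366 and 1.06 FPKM, against at most 0.258 at E16.5. The part of depth in the zeros was not tested. Igf2 made up between 95.94% and 100% of the summed FPKM of the 2 ligands in every sample.

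Igf2r stood at 143.5, 131.0 and 136.3 FPKM in the adult samples. At E16.5 it stood at 28.5, 29.5 and 65.8 FPKM, with replicate 3 the nearest to the adults. The groups did not overlap. The means were 137 ± 6.24 FPKM in adult and 41.3 ± 21.2 at E16.5 (SD, n = 3 each). The log2 change was 1.81 (SE 0.38, 95% interval 0.93 to 2.70), with an adjusted p of 0.0295 by limma, above that of 96.8% of the genes tested. The adjusted p rose past the threshold without adult replicate 1 (0.0657), without E16.5 replicate 1 (0.102) and without E16.5 replicate 2 (0.103), and was 0.142 when samples were rescaled to the same sum. Igf2r (chr17:12682406-12769664, minus strand) overlaps the antisense gene Airn by 28354 bases. Airn was listed at or near 0 in every sample.

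Igf1r, the receptor for both ligands, stood at 50.3, 53.3 and 42.2 FPKM in adult and at 34.8, 30.1 and 40.0 FPKM at E16.5. The groups did not overlap, although adult replicate 3 and E16.5 replicate 3 were close. The means were 48.6 ± 5.72 and 34.97 ± 4.95 FPKM (SD, n = 3 each), a log2 change of 0.47 (SE 0.32) with an adjusted p of 0.341 by limma. The change was -0.35 when samples were rescaled to the same sum.

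Insr, the insulin receptor, stood at 18.1, 22.1 and 16.9 FPKM in adult and at 8.66, 8.12 and 12.1 FPKM at E16.5. The groups did not overlap, and E16.5 replicate 3 was again the E16.5 sample nearest to the adults. The means were 19.03 ± 2.73 and 9.62 ± 2.14 FPKM (SD, n = 3 each), a log2 change of 0.93 (SE 0.44, 95% interval -0.10 to 1.96) with an adjusted p of 0.196 by limma. Igf2r made up 67.7%, 63.5% and 69.7% of the summed FPKM of the 3 receptors in adult and 39.6%, 43.6% and 55.8% at E16.5.

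Igfbp2, a binding protein abundant in cerebrospinal fluid, was the most abundant member at E16.5, at 994.2, 870.3 and 644.6 FPKM. In adult it stood at 427.8, 427.8 and 502.2 FPKM. All adult samples lay below all E16.5 samples. The means were 453 ± 43.0 and 836 ± 177 FPKM (SD, n = 3 each), a log2 change of -0.87 (SE 0.24, 95% interval -1.44 to -0.30) with an adjusted p of 0.0618 by limma. Relative to the median gene the change was -0.01, and 49.8% of the genes tested had a lower change. Igfbp2 held 93.7% to 97.5% of the summed FPKM of the 4 binding proteins in every sample.

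Igfbp4 was listed at 0.959, 8.71 and 0 FPKM in adult and stood at 13.7, 9.90 and 4.29 FPKM at E16.5. The groups overlapped, with adult replicate 2 above E16.5 replicate 3. The log2 change was -1.83 (SE 0.97) with an adjusted p of 0.234 by limma. Igfbp5, which binds extracellular matrix as well as IGFs, stood at 9.80, 20.2 and 19.3 FPKM in adult and at 19.03, 24.97 and 13.05 FPKM at E16.5. These ranges overlapped, and the means of 16.4 ± 5.77 and 19.02 ± 5.96 FPKM (SD, n = 3 each) gave a log2 change of -0.22 (SE 0.49, 95% interval -1.35 to 0.91) with an adjusted p of 0.781. Igfbp2 and Igfbp5 lie 5.46 kb apart on chromosome 1 on opposite strands.

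By level per length, the adult order was Igf2, Igfbp2, Igf2r, Igf1r, and then Insr and Igfbp5, whose samples overlapped, followed by Igfbp4 and Igf1, which overlapped too. At E16.5 it was Igfbp2, Igf2, and then Igf2r and Igf1r, which overlapped, followed by Igfbp5, Igf1, Insr and Igfbp4, whose samples overlapped from each to the next.

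Ratios within a sample do not move with the scaling of that sample, apart from the pseudocount. The ratio of Igf2r to Igf1r, from FPKM + 1, was 2.82, 2.43 and 3.18 in adult and 0.823, 0.982 and 1.63 at E16.5, a difference of 2.55-fold. The ratio of Insr to Igf1r was 0.372, 0.425 and 0.414 in adult against 0.270, 0.293 and 0.319 at E16.5, a difference of 1.37-fold. Neither ratio overlapped between the ages. Both gave an exact two-sided permutation p of 0.1 and 0.133 after adjustment over 4 ratios, and 3 samples against 3 cannot go lower than 0.1. The ratio of Igf2 to Igf1 also did not overlap (p = 0.1, exact permutation test), but it rested on the listed zeros of Igf1. For Igfbp2 over the sum of Igfbp3, Igfbp4 and Igfbp5 the groups overlapped (p = 0.7, exact permutation test).

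Other ratios were chosen after the values were seen and are given as description. Igf2 over Igfbp2 was 1.86, 1.65 and 1.92 in adult and 0.521, 0.685 and 0.756 at E16.5, so that the ligand transcript exceeded that of its main binding protein in adult and not at E16.5. Igf2 over Igf2r was 5.54, 5.40 and 7.08 in adult and 18.2, 20.2 and 7.41 at E16.5. E16.5 replicate 3 lay close to the adult values in this last ratio.

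**Figure D2:**
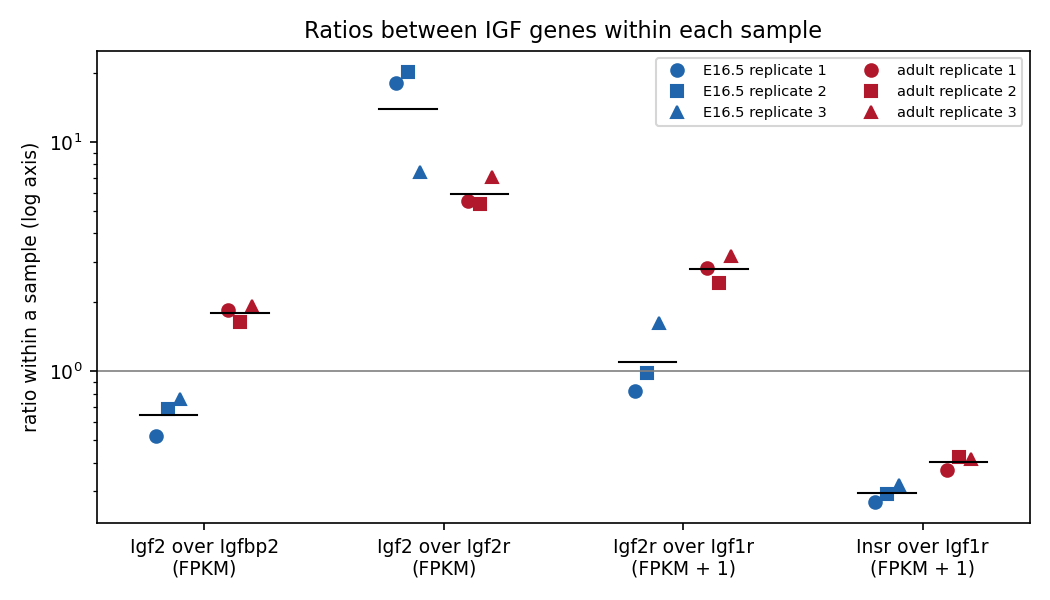
Ratios between members in each sample on a log axis, E16.5 in blue and adult in red, with the black line the geometric mean of 3 samples and the grey line a ratio of 1. The ratios to Igf1r use FPKM + 1 and the others FPKM. Igf2 over Igfbp2 lay above 1 in all adult samples and below 1 in all E16.5 samples.

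The choice of scaling moved the changes of all 8 tested members. The median log2 change over all genes was -0.86 as deposited, -1.57 with equal sums, -0.99 with equal sums leaving out Mir6236, -0.58 with median-ratio scaling and -0.15 with quantile normalization. Mir6236, annotated as a microRNA gene, took 32.7% to 51.7% of the summed FPKM in adult and 13.3% to 15.0% at E16.5. The Igf2r change lost its call with equal sums (adjusted p = 0.142 by limma) and with equal sums leaving out Mir6236 (0.0528). Since a rescaling shifts all genes of a sample about alike, a change relative to the median moves little by construction, and these values are given as description. Relative to that median, Igf2r lay at 2.43 to 2.73 and Insr at 1.72 to 1.92 under the 5 scalings. Igf2 lay at 1.28 to 1.53, Igf1r at 1.02 to 1.38 and Igfbp2 at -0.16 to 0.05.

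**Figure D3:**
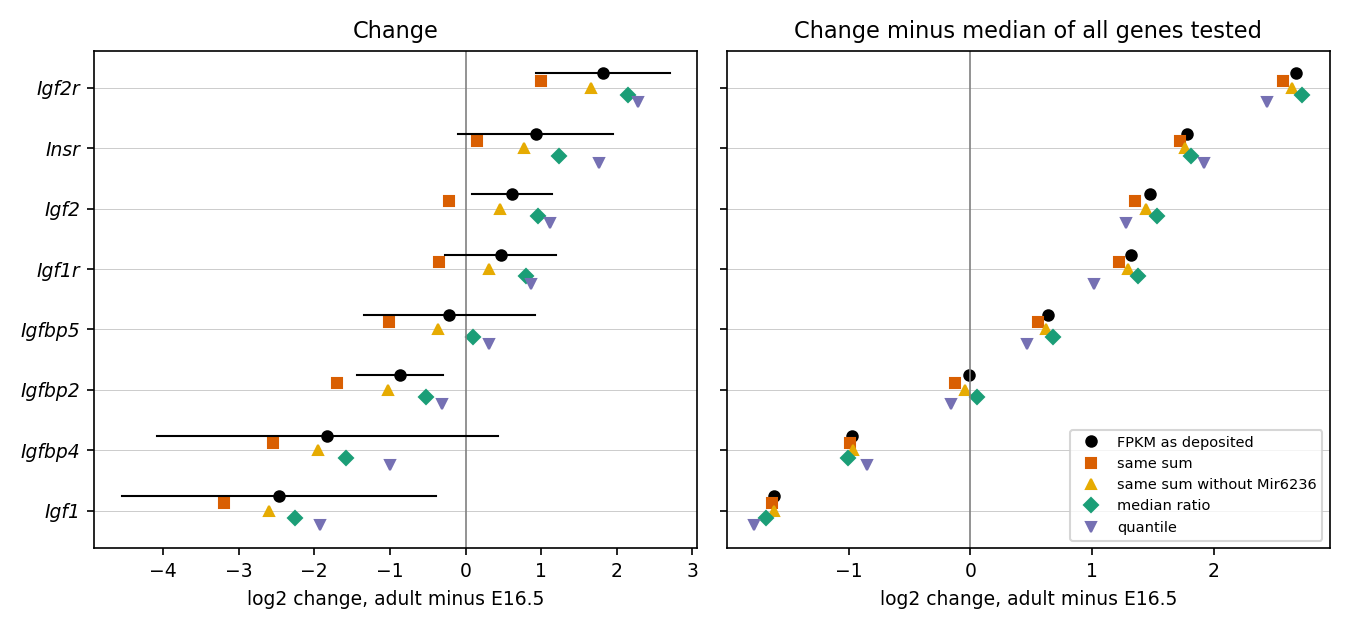
Log2 change, adult minus E16.5, of the 8 tested members under 5 scalings. The left panel gives the change with the 95% limma interval for FPKM as deposited, and the right panel the change minus the median of all genes tested, which takes out most of the shift between scalings by construction.

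Markers of ChP epithelium, the cell type that the paper targeted with the Foxj1 Cre, differed between the ages in both directions. The 16 markers summed to 40410 to 55890 FPKM in adult and 4949 to 5416 at E16.5. Of these markers, 10 were called (6 higher and 4 lower in adult), beside 10.9% of all genes tested (2.12% higher and 8.83% lower). The ages did not overlap for 15 of the 16 (9 higher and 6 lower in adult), beside 38.4% of all genes tested (7.39% higher and 31.0% lower). Folr1 stood at 464.9 to 707.4 FPKM in adult and 826.8 to 1048 at E16.5, and Clic6 at 559.5 to 769.0 and 740.4 to 810.0. Ttr, the transthyretin gene, reached 31300 FPKM in adult but had an exact 0 in each of the E16.5 samples, which can be a failed estimate. Enpp2 stood at 14890 to 18730 FPKM in adult and 242.0 to 303.0 at E16.5. Ttr and Enpp2 made up most of the adult sum. Otx2 stood at 150.4 to 184.2 FPKM in adult and 340.1 to 426.1 at E16.5, and Kcne2 at 340.4 to 555.9 and 963.0 to 1184. Kl stood at 502.7 to 628.4 FPKM in adult and 6.03 to 8.94 at E16.5, and Slc4a10 at 262.8 to 282.4 and 19.4 to 27.7. Summed markers of mesenchyme and fibroblasts were 42.1 to 82.6 FPKM in adult and 241.1 to 306.2 at E16.5, with 6 of 16 listed at 0 in all adult samples. Of those 6, Dpt was at 0 at E16.5 too. Lum and Foxc1 were above 0 only in E16.5 replicate 1, Twist1 only in replicate 2 and Foxd1 only in replicate 3. Leptomeningeal markers summed to 16.1 to 54.8 FPKM in adult and 138.8 to 173.2 at E16.5, and markers of motile cilia to 251.4 to 411.0 and 988.7 to 1104, with Foxj1, whose promoter drives the Cre, among the latter. Endothelial markers summed to 0.489 to 28.4 FPKM in adult and 17.7 to 42.6 at E16.5, with the highest sum in E16.5 replicate 3, and Pecam1 at 0 in all but 1 sample. Summed markers of red blood cells were 0 to 6.49 FPKM in adult and 54.1 to 323.8 at E16.5, and those of neurons and neural progenitors 10.1 to 19.9 and 31.0 to 133.3. Both E16.5 maxima came from replicate 1, and the neuronal sums of replicates 2 and 3 were 30.95 and 31.09. Macrophage markers (0.0695 to 20.2 in adult, 1.85 to 9.03 at E16.5) and mural cell markers (4.85 to 14.8 and 9.97 to 11.7) overlapped between the ages. The part of these markers in the levels of the IGF genes was not tested.

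Adult replicate 3 was the shallowest library by the spacing of the lowest FPKM values, which reflects what 1 read is worth, and the E16.5 libraries were 4.08 to 5.09 times as deep. Adult samples had 7599 to 11340 genes above 0, against 12761 to 13077 at E16.5.

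Of 66 further genes of the pathway, all in the table, 54 were tested. The test called 9 (2 with higher and 7 with lower adult levels) and left 45 uncalled, with a median log2 change of -0.66. Over all genes tested, 10.9% were called, 2.12% higher and 8.83% lower, with a median of -0.86. The 7 lower calls included Grb10 and the RNA-binding proteins Igf2bp1 and Igf2bp2, and the 2 higher calls were Akt2 and Furin. Among the lower calls, Igf2bp1, Igf2bp2, H19, Igfbpl1 and Pcsk6 passed the filter on the mean through E16.5 alone. With any of E16.5 replicates 1, 2 or 3 left out, Grb10 was the only one of these 9 still called, and the calls over all genes fell to 57, 43 and 112. The other 8 then had adjusted p between 0.0503 and 0.124.

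Grb10, an adaptor that binds the IGF1 and insulin receptors and restrains their signal, stood at 18.1, 36.2 and 30.3 FPKM in adult and at 385.0, 320.9 and 387.4 at E16.5. The ages were far apart in every sample, with a ratio of means of 12.9 and a log2 change of -3.69 (SE 0.33, adjusted p = 0.00231 by limma). It was called under all 18 alternatives tried.

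Akt2, a kinase that acts below the receptors, stood at 42.8, 40.7 and 87.1 FPKM in adult and 7.91, 13.2 and 11.8 at E16.5. The groups did not overlap, and the log2 change was 2.21 (SE 0.45, adjusted p = 0.0273 by limma). Akt1 stood at 24.4, 42.0 and 36.4 FPKM in adult and 85.4, 77.9 and 59.9 at E16.5. Every adult value was lower than every E16.5 value, with a log2 change of -1.12 and an adjusted p of 0.0765 by limma.

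Of the genes named for the IGF2 locus or its mRNA, H19 and Igf2bp1 were listed at 0 in all adult samples, as were 749 of the 11601 genes tested. Such zeros can be failed estimates, and these genes, like Igf2bp2, passed the filter on the mean through E16.5 alone. H19, a non-coding RNA gene 72.62 kb from Igf2, was listed at 0 in all adult samples and at 272.1, 41.3 and 44.7 FPKM at E16.5 (adjusted p = 0.00705 by limma). Igf2bp1 was listed at 0 in all adult samples and at 9.97, 8.22 and 13.0 FPKM at E16.5 (adjusted p = 0.0158), and Igf2bp2 at 0, 1.56 and 0 against 33.8, 20.3 and 26.9 (adjusted p = 0.0121). Igf2bp3 stood at 15.4, 0 and 0.0788 FPKM in adult and 32.1, 11.4 and 21.1 at E16.5, with overlapping groups (adjusted p = 0.125).

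**Figure D4:**
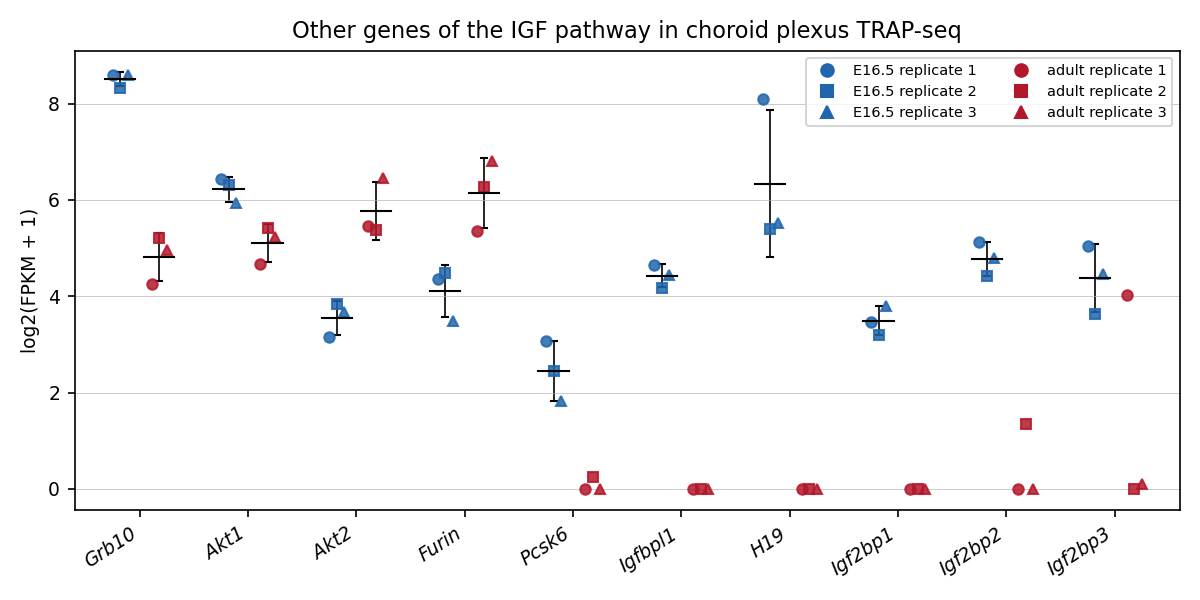
Levels of 10 pathway genes as log2(FPKM + 1) in each sample, E16.5 in blue and adult in red, with mean and SD of 3 samples where none is listed at 0. Grb10, Igfbpl1, Igf2bp1 and Igf2bp2 lie lower in adult and Akt2 and Furin higher.

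Among proteases that process IGFs or their relatives, Furin stood at 39.9, 76.2 and 110.3 FPKM in adult and 19.4, 21.2 and 10.2 at E16.5, a log2 change of 2.04 (SE 0.49, adjusted p = 0.0414 by limma). This call was also lost without adult replicate 2 (0.0692) or 3 (0.0506). Pcsk6 was listed at 0, 0.194 and 0 FPKM in adult and at 7.38, 4.45 and 2.52 at E16.5 (adjusted p = 0.0477), and the call was lost without each adult replicate in turn (0.0567 to 0.108). It passed the filter on the mean through E16.5 alone. Ctsd, a lysosomal protease, stood at 1059, 1541 and 1197 FPKM in adult and 1025, 890.8 and 846.1 at E16.5, with an adjusted p of 0.231. Pappa and Pappa2, proteases that cut binding proteins, were listed at 0 in all adult samples and were at most 1.63 FPKM at E16.5.

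Other binding proteins and ligands gave no call except Igfbpl1, which was listed at 0 in all adult samples and at 24.2, 17.1 and 20.8 FPKM at E16.5 (adjusted p = 0.00795 by limma). Its call rests on those zeros, which can be failed estimates, and it passed the filter on the mean through E16.5 alone. Igfbp7 spread widely, at 3.34, 33.8 and 132.8 FPKM in adult and 7.65, 0.207 and 0.971 at E16.5 (adjusted p = 0.137). Ins2, which lies 11.84 kb from Igf2, was listed at 0, 55.6 and 0 FPKM in adult and stood at 42.2, 25.3 and 63.9 at E16.5 (adjusted p = 0.165). Irs1 and Irs2, the docking proteins of the receptors, had adjusted p of 0.276 and 0.390.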

How the data were processed

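The 6 TRAP-seq samples, 3 for each age, were grouped by their labels. The authors aligned single-end reads to mm10 with STAR 2.4.0 and deposited gene FPKM from Cuffquant. The study used both sexes, but which sex each TRAP-seq sample held, the annotation given to Cuffquant, the strand setting and batches are not given in the sources used here, and the authors' read counts were not analysed here. No rescaling was applied to the deposited FPKM, and the 11601 genes with a mean over 1 were compared on log2(FPKM + 1) with limma 3.58.1 (R 4.3.3, intensity trend, no covariates) and the Benjamini-Hochberg method, with calls at an adjusted p of 0.05. This scale understates changes of low genes. Positions are from GENCODE M21, in which 95.6% of gene names were matched by symbol. Depth was estimated from 2523 single-transcript genes, with 62.9% to 80.0% of their low values no more than 0.1 read from a whole number (20% by chance). The named genes were all 9 members, every called pathway gene except 1 that is not reported here, up to 10 other pathway genes that describe a role, and the genes closest in profile to a member. Beyond that rule, Pappa and Pappa2, Igf2os, Airn, Mir6236 and some markers were named after their values were seen. The members and lists were chosen with earlier results of these data known. Alternatives covered pseudocount, filter, scaling, model, threshold and each sample left out.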

Additional observations from a re-analysis of the deposited data

How the results depend on the processing

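Over all genes, 1270 calls became 2005 when FPKM had to exceed 1 in every sample of an age, 3213 with samples rescaled to the same sum, 564 with the replicate block and 188 at a threshold of 0.01. Members called went from 1 to 2 with equal sums (Igf1 and Igfbp2) and 2 with median-ratio scaling (Igf2 and Igf2r), and to 0 with limma without a trend, with the replicate block and at a threshold of 0.01, where 4 members had an unadjusted p under 0.05 in limma as reported. Pathway calls went from 9 to 14 with equal sums, 4 with the block and 3 at a threshold of 0.01. With equal sums the log2 change was -3.19 for Igf1, -0.21 for Igf2, -0.35 for Igf1r, 1.0 for Igf2r and -1.70 for Igfbp2. With equal sums leaving out Mir6236 it was 1.65 for Igf2r, which lost its call (adjusted p = 0.0528), and -1.03 for Igfbp2, which gained one (0.032). The count of called members was 1 in both cases, for a different gene. Median-ratio scaling gave 0.96 for Igf2 and 0.10 for Igfbp5, and quantile normalization 0.31 for Igfbp5. The Igf2r change of 1.81 had an adjusted p of 0.0661 without a trend, 0.0505 with the block, and its 0.0295 as reported lies above a threshold of 0.01. The share of calls higher in adult was 19.4% as reported, 3.55% with equal sums, 34.5% with median-ratio scaling and 50.9% with quantile normalization. The causes were not tested.

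Leaving out each sample in turn gave 43 to 1923 calls over all genes, 0 to 1 called members, 1 to 11 called pathway genes and an Igf2r change of 1.61 to 2.2. Igfbp5 ranged from -0.45 to 0.10, turning without adult replicate 1, and the log2 ratio of Igfbp2 to the other binding proteins ranged from -0.64 to 0.037, turning without adult replicate 2. Pathway calls fell to 1 without any 1 of the E16.5 samples. The deviations of samples with the same replicate number correlated at 0.000895, 0.0439 and 0.015, and those of the other pairs at -0.0292 to 0.0135. Adult replicates 2 and 3 correlated best with the E16.5 sample of the same number, and adult replicate 1 with E16.5 replicate 3. Values this small cannot settle whether the replicate numbers pair the samples. Depth matters most for low members, such as Igf1 and Igfbp4 in adult, and its part in their values was not tested.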

Other observations

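For 3 members, the 3 tested genes with the most similar profile over the 6 samples by Pearson's r of log2(FPKM + 1) are given as a description. All points share the same libraries and depth. For Igf2r these were Supt6 (r = 0.994), Fap (0.994) and Pbxip1 (0.991). For Igf2 they were Fam120a (0.997), Snap29 (0.994) and 5730409E04Rik (0.991), and for Igfbp2 Mcf2l (0.991), Exoc5 (0.987) and Cyba (0.987). Cyba was listed at 0 in all adult samples, and such zeros can be failed estimates. Many other tested genes were nearly as similar to each of these members, so the named genes are not particular to them.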
